A study of Mus musculus with 16 samples.

Results

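Serpine2, F2rl2 and Cd9 are 3 mouse genes of the megakaryocyte lineage, the cells that release platelets, and their RNA was followed here in haematopoietic stem cells (HSC) and in a progenitor population of bone marrow. They were chosen by their CPM in the HSC libraries, higher with the Jak2V617F mutation than without it, so their difference between mutant and control HSC is given below as a description, with no test. They are 3 of 29806 gene rows measured, and all 3 were among the 14179 genes with enough counts to be tested. The 4 groups were Jak2V617F HSC, WT HSC, Jak2V617F MPP3 and WT MPP3, with 4 libraries each. MPP3 stands for multipotent progenitors that mostly give rise to myeloid cells, in this study those without Fcgr on their surface. WT animals are called controls. The genotype labels give no more than Jak2V617F or WT, and neither the zygosity, the promoter or Cre behind the allele, any treatment nor the age of the mice is given there.

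Jak2V617F is an amino acid change that keeps the kinase JAK2 active without its cytokine, and in people it is the most frequent driver of the blood cancers with too many platelets or red cells. JAK2 carries the signals of cytokine receptors on blood stem cells and their progeny, and a subset of HSC already holds RNA of platelet genes. Serpine2 encodes a secreted inhibitor of thrombin, urokinase and tissue plasminogen activator that platelets store and release. F2rl2 encodes a protease-activated receptor which, on mouse platelets, presents thrombin to its partner receptor F2rl3. Cd9 encodes a tetraspanin, a membrane protein with 4 passes through the membrane that organises integrins and other surface proteins and is abundant on platelets and megakaryocytes.

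The promoters are shown because the 3 genes were grouped for rising together in 1 cell type, and their start regions can be set side by side. Each runs from 250 bases before to 50 bases after the RefSeq start on GRCm38.p6, 5′ to 3′ on the gene's own strand, with GATAA (the core letters of GATA sites, which GATA1 uses in megakaryocytes and red cells) and GGGCGG (the core of GC boxes) in capitals. The Serpine2 window is chr1:79858616-79858915 on the minus strand, that of F2rl2 is chr13:95696670-95696969 on the plus strand, and that of Cd9 is chr6:125494711-125495010 on the minus strand.
Serpine2: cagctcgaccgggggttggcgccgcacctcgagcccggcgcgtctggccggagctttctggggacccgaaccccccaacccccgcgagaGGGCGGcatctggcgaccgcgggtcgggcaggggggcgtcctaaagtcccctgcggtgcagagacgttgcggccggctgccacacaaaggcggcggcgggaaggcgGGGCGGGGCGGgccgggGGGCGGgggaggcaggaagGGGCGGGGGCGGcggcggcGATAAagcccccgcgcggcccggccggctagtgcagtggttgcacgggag
F2rl2: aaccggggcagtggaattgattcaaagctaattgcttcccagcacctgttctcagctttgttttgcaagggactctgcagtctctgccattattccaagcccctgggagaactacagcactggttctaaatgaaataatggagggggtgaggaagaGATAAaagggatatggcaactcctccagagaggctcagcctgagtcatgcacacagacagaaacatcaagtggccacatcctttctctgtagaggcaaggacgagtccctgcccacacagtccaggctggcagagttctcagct
Cd9: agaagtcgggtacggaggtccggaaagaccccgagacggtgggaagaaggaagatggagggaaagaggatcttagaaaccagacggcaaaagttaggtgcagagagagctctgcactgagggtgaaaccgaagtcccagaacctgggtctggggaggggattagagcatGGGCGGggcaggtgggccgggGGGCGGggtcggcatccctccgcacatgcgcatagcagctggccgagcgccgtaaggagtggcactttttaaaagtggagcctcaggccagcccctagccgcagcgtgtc
The sequences were unlike in composition. The Serpine2 window had 77.7% G and C with 41 CpG and 6 GGGCGG, of which 1 pair shares a base. The Cd9 window had 61.3% G and C with 18 CpG and 2 GGGCGG. The F2rl2 window had 50.7% G and C, 2 CpG and no GGGCGG, against medians of 52.7% and 7 CpG over the 32851 RefSeq promoter windows of the same length. GATAA was found once in Serpine2, at the start itself, once in F2rl2, from base -94 to -90 relative to the start, and not in Cd9. These positions count from the RefSeq start, which for all 3 genes lies inside the span of the gene in GENCODE M21. The F2rl2 and Cd9 windows also cover the GENCODE start, and the Serpine2 window does not. Both strands were searched, and 25.4% of all windows held GATAA, 35.7% GGGCGG and 8.30% TTCNNNGAA, the letters of a STAT site, which was in none of the 3 windows. These matches describe the letters and do not show binding.

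Each library held between 33.4 and 41.5 (times 1e6) estimated counts and 14439 to 16522 detected genes. The MPP3 libraries carried the markers of their population. The summed CPM (counts per 1e6, scaled by TMM) of 13 MPP3 genes was 2839 to 4337 in mutant MPP3 and 2856 to 5995 in control MPP3. In HSC it was 217 to 383 in mutant and 374 to 455 in control libraries. The sum of 13 HSC genes was 1776 to 2217 in mutant HSC and 2629 to 2816 in control HSC, with no overlap. In MPP3 the sum of these HSC genes was 1183 to 1590 in mutant and 1318 to 1773 in control libraries, so control MPP3 came close to mutant HSC. Kit, 1 of the 13, averaged 973 CPM in mutant HSC, 1255 CPM in control HSC, 857 CPM in mutant MPP3 and 970 CPM in control MPP3. Jak2 itself averaged 25.9 ± 5.23 CPM in mutant HSC and 21.7 ± 5.89 CPM in control HSC, with 24.4 ± 5.51 CPM in mutant MPP3 and 24.7 ± 5.66 CPM in control MPP3 (SD, n = 4 each). A count per gene does not see the mutated base, so this is no check of the genotype. RNA of the Y-linked gene Ddx3y stood at 33.4 to 66.8 CPM in batches 2 and 3 and at 0 in batches 1 and 4, alike in all 4 groups. Eif2s3y and Uty, also Y-linked, split by batch in the same way. Eif2s3y stood at 27.1 to 49.4 CPM in batches 2 and 3 and at 0.637 CPM or less in batches 1 and 4. Uty stood at 10.5 CPM or more in batches 2 and 3 and at 0.221 CPM or less in batches 1 and 4. Kdm5d, a further Y-linked gene, did not drop out in any batch and was at 7.64 CPM or more in every library. The labels do not give the sex of the mice, and none is read from these genes. The replicate number of a library is also its batch, per the labels. The labels do not say that the libraries of a group came from separate animals, so every p measures the spread between these libraries.

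Serpine2 was the gene of the 3 whose difference between mutant and control pointed opposite ways in the cell types, higher in mutant HSC and lower in mutant MPP3. The gene (ENSMUSG00000026249) spans chr1:79794197-79861180 on the minus strand in GENCODE M21, and no other annotated gene overlaps it. The RefSeq start used above lies inside this span, so the 2 annotations place the start differently. The promoter window reaches chr1:79858915 and does not cover the GENCODE start at 79861180. In Jak2V617F HSC the level was 50.6, 42.4, 12.7 and 30.4 CPM in replicates 1 to 4, against 13.6, 7.52, 11.0 and 5.22 CPM in control HSC. Mutant replicates 1, 2 and 4 stood above every control, while mutant replicate 3 lay within the control range, so the groups overlapped. The means were 34.0 ± 16.4 CPM in mutant HSC and 9.33 ± 3.71 CPM in control HSC (SD, n = 4 each), a log2 fold change of 1.87 ± 0.37 (SE). Within batches 1 to 4 the mutant library exceeded its control by 1.89, 2.49, 0.22 and 2.53 on the log2 scale (14% of all genes tested were higher in 4 of 4 batches), and without mutant replicate 3 the log2 fold change was 2.17. In bulk libraries more cells of a type and more RNA per cell cannot be told apart, which holds for every level given here.

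In Jak2V617F MPP3 Serpine2 stood at 8.16, 11.7, 14.5 and 7.46 CPM, against 15.1, 18.6, 20.3 and 20.3 CPM in control MPP3. Every mutant library lay below every control library, though the highest mutant and the lowest control were less than 1 CPM apart. A gap of this kind in the lower direction was found in 3.48% of the 14179 genes tested. The means were 10.5 ± 3.27 CPM in mutant MPP3 and 18.6 ± 2.46 CPM in control MPP3 (SD, n = 4 each), and the log2 fold change was -0.83 ± 0.36 (SE). Its adjusted p was 0.311 by the quasi-likelihood test of edgeR, adjusted by Benjamini-Hochberg over all genes tested (unadjusted p = 0.0337), so it did not pass the threshold of 0.05. Unadjusted p below that threshold was found in 13.8% of all genes in this comparison, and an adjusted p below it in 0.0635%. The mutant library was lower in 4 of 4 batches, with differences of -0.88, -0.66, -0.49 and -1.44 on the log2 scale, as were 10.8% of all genes. Genes higher in mutant HSC in all 4 batches and lower in mutant MPP3 in all 4 made up 0.36% of those tested, and Serpine2 was picked with the HSC side of that pattern known. Such genes were 51 of the 1979 that were higher in all 4 HSC batches.

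F2rl2 was mainly an HSC transcript, and its mutant and control libraries were apart in HSC and overlapped in MPP3. The gene (ENSMUSG00000021675) spans chr13:95696853-95702739 on the plus strand, where it overlaps Iqgap2 on the opposite strand without a shared exon base. In Jak2V617F HSC it stood at 35.1, 39.1, 38.4 and 25.8 CPM, against 19.5, 9.86, 17.3 and 13.1 CPM in control HSC. All mutant libraries lay above all controls, a gap that 7.26% of all genes tested showed in the higher direction and from which nothing is read, since this contrast chose the genes. The means were 34.6 ± 6.13 CPM in mutant HSC and 14.9 ± 4.29 CPM in control HSC (SD, n = 4 each), a log2 fold change of 1.21 ± 0.31 (SE). Within batches the difference ran from 0.85 to 1.98 on the log2 scale.

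In Jak2V617F MPP3 F2rl2 stood at low levels, with 5.17, 1.98, 3.04 and 3.81 CPM, against 2.00, 3.00, 1.14 and 2.35 CPM in control MPP3. The groups overlapped, with mutant replicate 2 below 3 of the control libraries. These levels rest on 71 to 180 counts per mutant library and 43 to 100 per control library. The means were 3.50 ± 1.34 CPM in mutant MPP3 and 2.12 ± 0.776 CPM in control MPP3 (SD, n = 4 each). The log2 fold change was 0.72 ± 0.32 (SE) with an adjusted p of 0.326 by edgeR's quasi-likelihood test (unadjusted p = 0.0375). The mutant library was higher in batches 1, 3 and 4, by 1.35, 1.37 and 0.68 on the log2 scale, and lower in batch 2, with a difference of -0.59.

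Cd9 was the most abundant of the 3 and had the smallest and most even difference, of the same size in both cell types. The gene (ENSMUSG00000030342) spans chr6:125460266-125494791 on the minus strand. It shares 218 exon bases with Gm26728 on the opposite strand, and no source used here says whether counting used strand, so reads of that gene could have entered the Cd9 count. In Jak2V617F HSC Cd9 stood at 243, 251, 266 and 209 CPM, against 176, 177, 194 and 161 CPM in control HSC. The groups did not overlap, as for F2rl2. The means were 242 ± 24.3 CPM in mutant HSC and 177 ± 13.3 CPM in control HSC (SD, n = 4 each), a log2 fold change of 0.45 ± 0.10 (SE).

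In Jak2V617F MPP3 Cd9 stood at 101, 115, 127 and 109 CPM, against 75.1, 83.3, 94.5 and 79.5 CPM in control MPP3. The groups did not overlap here either, which 3.65% of all genes tested showed in the higher direction. The means were 113 ± 10.9 CPM in mutant MPP3 and 83.1 ± 8.28 CPM in control MPP3 (SD, n = 4 each), and the log2 fold change was 0.44 ± 0.10 (SE). Its adjusted p was 0.0976 by edgeR's quasi-likelihood test (unadjusted p = 0.000454), short of the threshold. With the batch as a replicate block, which pairs the libraries of the same number, the log2 fold change was again 0.44 and the adjusted p 0.0264, and DESeq2 gave an adjusted p of 0.00717. The mutant library was higher in 4 of 4 batches, by 0.43, 0.47, 0.42 and 0.45 on the log2 scale, a narrower range than in HSC, where the batches gave 0.47, 0.51, 0.46 and 0.37. In MPP3 10.2% of all genes tested were higher in 4 of 4 batches, and 4.95% were so in both cell types. Cd9 was picked with the HSC side of that pattern known. Of the 1979 genes higher in all 4 HSC batches, 702 were also higher in all 4 MPP3 batches.

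**Figure D1:**
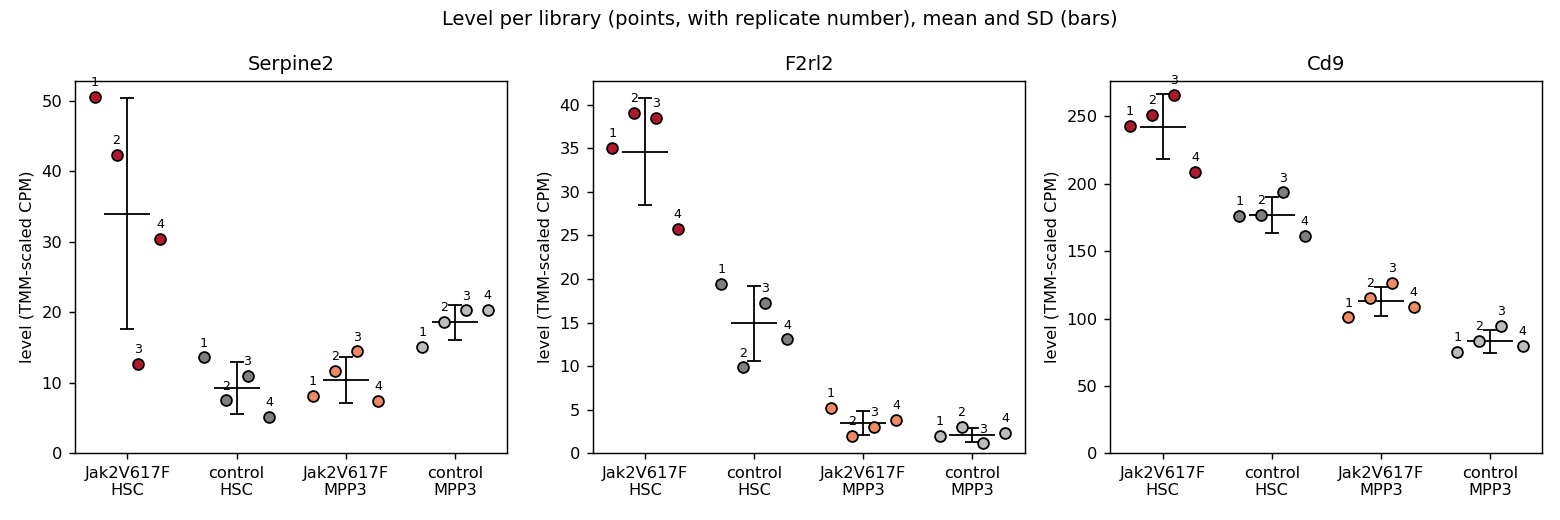
Level of each gene in TMM-scaled CPM per library, in Jak2V617F and control HSC and in Jak2V617F and control MPP3. Points are libraries with their replicate number, and bars are the mean and SD (n = 4). Serpine2 in mutant HSC spreads from 12.7 to 50.6 CPM, F2rl2 is near the axis in both MPP3 groups, and the Cd9 groups form 4 separate steps.

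**Figure D2:**
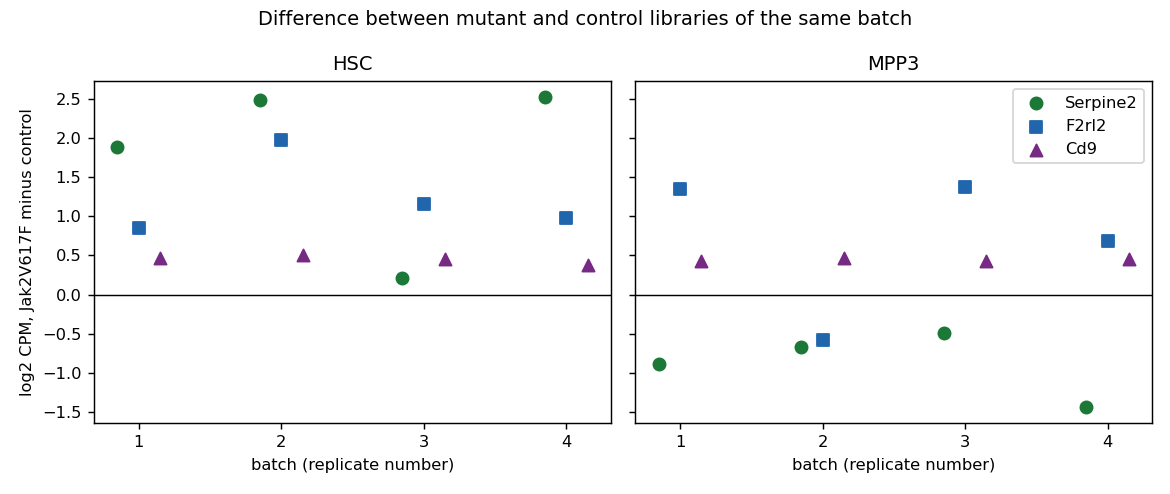
Difference of log2 CPM between the mutant and the control library of the same batch, in HSC (left) and MPP3 (right), for each gene. Cd9 stays between 0.37 and 0.51 in all 8 pairs, and Serpine2 lies above 0 in HSC and below 0 in MPP3.

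The order of the groups differed from gene to gene. Cd9 was highest in mutant HSC, then control HSC, mutant MPP3 and control MPP3, and no neighbouring groups overlapped. F2rl2 had the same order, and its 2 MPP3 groups overlapped. In CPM Serpine2 was highest in mutant HSC, then in control MPP3, mutant MPP3 and control HSC (mutant MPP3 and control HSC change places in TPM), where mutant HSC overlapped control MPP3 and mutant MPP3 overlapped control HSC. Because HSC libraries took part in the choice of the genes, MPP3 against HSC is described without a test. The log2 difference of MPP3 over HSC was -1.10 ± 0.10 in mutant and -1.09 ± 0.10 in control libraries for Cd9, and -3.30 ± 0.34 in mutant and -2.81 ± 0.33 in control libraries for F2rl2 (SE). Both genes were lower in every MPP3 library than in every HSC library of the same genotype, as were 7.63% of all genes in mutants and 10.2% in controls. For Serpine2 it was -1.70 ± 0.37 in mutant libraries and 1.00 ± 0.36 in control libraries (SE), so by group mean the cell type with more Serpine2 RNA was not the same. In batch 3, however, mutant MPP3 exceeded mutant HSC, at 14.5 against 12.7 CPM, the same direction as in controls. Control batch 1 was nearly level, at 15.1 CPM in MPP3 and 13.6 CPM in HSC. The mutant and control HSC levels behind this reversal are those that chose the gene. In CPM control MPP3 and control HSC did not overlap for Serpine2, a gap shown in the higher direction by 9.25% of genes tested, whereas the mutant groups did overlap. In TPM the control groups overlapped as well, with 11.8 TPM in control HSC replicate 1 and 9.68 TPM in control MPP3 replicate 1.

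Per length, in TPM (transcripts per 1e6), Cd9 averaged 314 in mutant HSC, 231 in control HSC, 141 in mutant MPP3 and 107 in control MPP3. Serpine2 averaged 24.0 TPM in mutant HSC, 7.42 TPM in control HSC, 6.57 TPM in mutant MPP3 and 12.3 TPM in control MPP3. F2rl2 averaged 18.5 TPM in mutant HSC, 8.01 TPM in control HSC, 1.77 TPM in mutant MPP3 and 1.11 TPM in control MPP3. By mean TPM, Cd9 lay above 96.6% of the tested genes in mutant HSC and 90.1% in control MPP3, and F2rl2 above 62.3% in mutant HSC and 18.8% in control MPP3. The effective length that the authors' quantification assigned to Serpine2 ran from 1378 to 1976 bases over libraries, against 2241 to 2363 for F2rl2 and 935 to 958 for Cd9. On the log2 TPM scale the Serpine2 difference in HSC was 1.60.

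**Figure D3:**
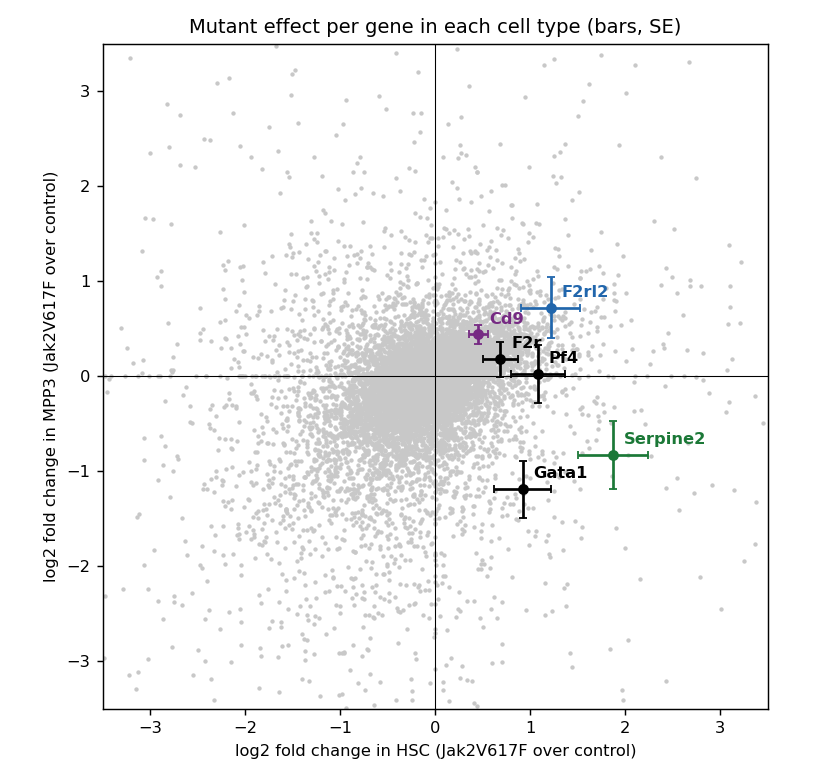
Log2 fold change of Jak2V617F over control in HSC (x axis) and in MPP3 (y axis) for 13689 tested genes (grey), with 490 genes outside the axes. The 3 genes and Gata1, Pf4 and F2r are marked with SE bars. Cd9 and F2rl2 lie at the upper right, and Serpine2 lies lower right with Gata1.

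Serpine2 acts on extracellular proteases, and RNA of both plasminogen activators was scarce in these cells. Their genes Plau (urokinase) and Plat (tissue plasminogen activator), whose products it inhibits, were near 0, Plau with at most 1.20 CPM and Plat with 0 counts in all 16 libraries. A count of 0 allows up to 0.0723 to 0.0899 CPM in these libraries, counting error only. The urokinase receptor gene Plaur averaged 17.9 ± 4.57 CPM in mutant HSC and 28.9 ± 15.7 CPM in control HSC (SD, n = 4 each), with an edgeR adjusted p of 0.233. Lrp1, a receptor that clears serpin complexes, averaged 0.724 ± 0.555 CPM in mutant HSC and 0.909 ± 0.924 CPM in control HSC. In MPP3 it averaged 2.22 ± 0.826 CPM in mutant and 3.18 ± 1.92 CPM in control libraries. Of 23 other genes of serpins and plasminogen activation, 17 were tested, and none rose and 2 fell in mutant HSC by edgeR's adjusted p, where 4.56% of all tested genes rose and 2.74% fell. At an unadjusted edgeR p under 0.05 there were 1 higher and 5 lower, where 21.7% of all genes had such a p in either direction, and DESeq2 called 1 higher and 2 lower. Those 2 were Serpinf1, the serpin PEDF, at -0.72 ± 0.16 (adjusted p = 0.0123), and Sdc4, a heparan sulfate proteoglycan of the cell surface, at -1.72 ± 0.44 (adjusted p = 0.0229, edgeR). Serpinf1 missed the threshold without mutant HSC replicate 2 (adjusted p = 0.0561). Sdc4 missed it in 6 of 17 alternatives, those without mutant HSC replicate 1, 2 or 4 or control HSC replicate 2 or 3 among them (adjusted p = 0.0578 to 0.197). The median log2 fold change of the 17 was -0.46 in HSC and -0.51 in MPP3, against -0.06 and -0.02 over all genes. In MPP3 none passed edgeR's adjusted threshold, with 1 higher and 8 lower at an unadjusted p under 0.05, against 13.8% of all genes in either direction. DESeq2 called 3 lower, where it called 386 of all genes tested.

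The receptor family of F2rl2 was led by F2r and F2rl3. F2r, the first thrombin receptor to be described, averaged 223 ± 54.7 CPM in mutant HSC and 139 ± 36.6 CPM in control HSC (SD, n = 4 each), a rise of 0.68 ± 0.18 on the log2 scale (SE, adjusted p = 0.0297, edgeR). That call was lost in 5 of 17 alternatives, without mutant HSC replicate 2 or 3, without control HSC replicate 2 or 4, and in a fit of the HSC groups alone (adjusted p = 0.0610 to 0.0885). In MPP3 F2r averaged 78.3 ± 7.56 CPM in mutant and 69.1 ± 6.28 CPM in control libraries, 0.18 ± 0.18 apart (adjusted p = 0.741, edgeR). F2rl3, the signalling partner of F2rl2 on mouse platelets, was nearly level over the groups, with 119 ± 18.0 CPM in mutant HSC, 108 ± 13.5 CPM in control HSC, 103 ± 21.1 CPM in mutant MPP3 and 89.3 ± 14.8 CPM in control MPP3. The mutant-to-control difference of F2rl3 was 0.14 ± 0.16 in HSC (adjusted p = 0.708, edgeR) and 0.21 ± 0.16 in MPP3 (adjusted p = 0.622, edgeR). F2rl1 was at 0 in all but 1 library, control HSC replicate 4. Per length, F2rl2 stood below both, since F2r averaged 102 TPM in mutant HSC and 63.3 TPM in control HSC, and F2rl3 87.0 TPM in mutant HSC and 78.6 TPM in control HSC.

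Of 26 other genes of thrombin receptors and their signalling, 24 were tested, and in mutant HSC 2 rose (F2r and Rgs10) and 1 fell (Plcb2) by edgeR's adjusted p, where 4.56% of all genes rose and 2.74% fell. Rgs10, which ends signalling of G proteins, had 5.73 ± 2.47 CPM in mutant HSC and 2.69 ± 0.345 CPM in control HSC, a log2 fold change of 1.09 ± 0.29 (adjusted p = 0.0304). It missed the threshold in 9 of 17 alternatives, mutant HSC replicates 1 and 3 and control HSC replicates 2, 3 and 4 being the libraries whose removal did so (adjusted p = 0.0513 to 0.122). Plcb2, a phospholipase C that G proteins activate, had 83.5 ± 12.2 CPM in mutant HSC and 152 ± 29.6 CPM in control HSC, a log2 fold change of -0.86 ± 0.19 (adjusted p = 0.0112), with adjusted p = 0.0507 to 0.164 in the 2 alternatives that leave out mutant HSC replicate 4, alone or with replicate 1. The G protein genes Gnaq at -0.39 ± 0.16 (adjusted p = 0.145) and Gna13 at -0.15 ± 0.12 (adjusted p = 0.540), and Thbd (thrombomodulin) at 0.20 ± 0.27 (adjusted p = 0.762), did not pass edgeR's test in HSC. The list's median log2 fold change was -0.33 in HSC and -0.02 in MPP3. In MPP3 none passed by edgeR or DESeq2. At an unadjusted edgeR p under 0.05 none was higher and 3 were lower, against 13.8% of all genes in either direction.

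The other tetraspanins and their partners were of mixed direction in mutant HSC. Per length, Cd9 stood below Cd81 and Cd63 in every group, since Cd81 averaged 615 TPM in mutant HSC and 739 TPM in control HSC, and Cd63 653 TPM in mutant HSC and 800 TPM in control HSC. Of 28 other tetraspanins and partners, 26 were tested, and in mutant HSC 1 rose and 4 fell by edgeR's adjusted p, where 4.56% of all genes rose and 2.74% fell. Cd53, a tetraspanin of white blood cells, rose by 1.31 ± 0.26 on the log2 scale, to 61.4 ± 13.7 CPM in mutant HSC against 24.8 ± 9.67 CPM in control HSC (adjusted p = 0.00514). Cd82, which in mouse HSC is linked to dormancy, fell to 47.7 ± 11.5 CPM in mutant HSC against 106 ± 20.6 CPM in control HSC, a log2 fold change of -1.15 ± 0.22 (adjusted p = 0.00460). Tspan3 at -0.79 ± 0.16 (adjusted p = 0.00532), Tspan4 at -0.50 ± 0.11 (adjusted p = 0.00815) and Cd63, a tetraspanin of lysosomes and platelet granules, at -0.30 ± 0.09 (adjusted p = 0.0448) fell as well. Tspan4 lost its call without mutant HSC replicates 1 and 4 together (adjusted p = 0.122), and Cd63 lost its call in 13 of 17 alternatives (adjusted p = 0.0502 to 0.185), among them each mutant HSC replicate and control HSC replicates 1, 2 and 3 left out. Cd81 at -0.27 ± 0.09 (adjusted p = 0.0720), Cd151 at -0.05 ± 0.24 (adjusted p = 0.942), the Cd9 partner Igsf8 at -0.13 ± 0.27 (adjusted p = 0.856) and the integrin chain Itgb1 at 0.07 ± 0.09 (adjusted p = 0.726) did not pass in HSC by edgeR. The list's median log2 fold change was -0.22 in HSC and -0.15 in MPP3. In MPP3 none passed edgeR's adjusted threshold, with 2 higher and 4 lower at an unadjusted p under 0.05, against 13.8% of all genes in either direction. DESeq2 called 1 lower, where it called 386 of all genes tested.

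**Figure D4:**
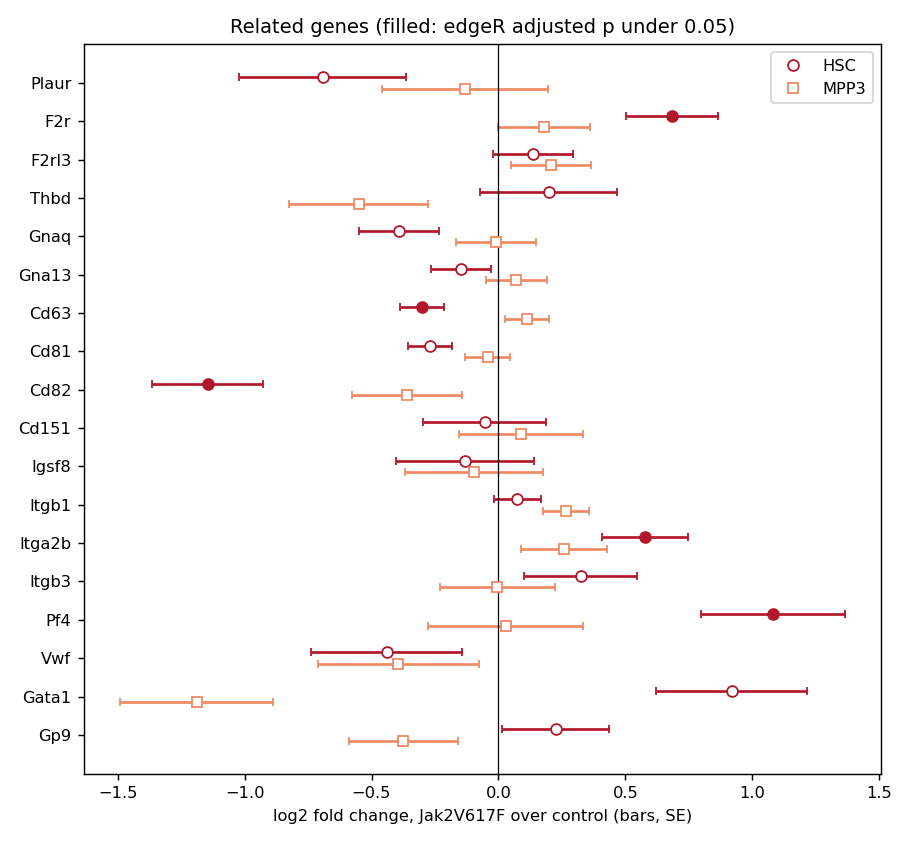
Log2 fold change of Jak2V617F over control for 18 relatives and partners of the 3 genes, with SE, in HSC (circles) and MPP3 (squares). Filled marks have an edgeR adjusted p under 0.05. In HSC F2r, Itga2b and Pf4 lie right of 0 and Cd63 and Cd82 left of it with filled marks, and in MPP3 no mark is filled.

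Pf4, Itga2b and Mmrn1 were the genes of the wider megakaryocyte list that passed the test in mutant HSC. Of 35 other genes, 34 were tested, and in HSC 2 rose and 1 fell by edgeR's adjusted p, shares near those of all genes (4.56% rose and 2.74% fell), with a median log2 fold change of -0.02 against -0.06 over all genes. Pf4, a chemokine of platelet granules, averaged 288 ± 49.7 CPM in mutant HSC and 136 ± 36.3 CPM in control HSC, a rise of 1.08 ± 0.28 (adjusted p = 0.0275). Itga2b, a chain of the platelet fibrinogen receptor, averaged 636 ± 136 CPM in mutant HSC and 427 ± 53.9 CPM in control HSC, a rise of 0.58 ± 0.17 (adjusted p = 0.0485). Mmrn1, a protein of platelet granules, fell to 282 ± 55.5 CPM in mutant HSC against 476 ± 24.3 CPM in control HSC, a log2 fold change of -0.76 ± 0.20 (adjusted p = 0.0298). Pf4 lost its call in 6 alternatives (adjusted p = 0.0505 to 0.0841), those without mutant HSC replicate 1 or 2 or control HSC replicate 2 or 3 among them. Itga2b lost it in 10, the replicate block and the removal of mutant HSC replicate 1 or 2 or any control HSC library among them (adjusted p = 0.0527 to 0.127). Mmrn1 lost it in 9, the removal of mutant HSC replicate 2, 3 or 4 or any control HSC library among them (adjusted p = 0.0509 to 0.102).

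By size of the HSC log2 difference, Serpine2 at 1.87 and F2rl2 at 1.21 stood above every other tested gene of that list, of which Pf4 at 1.08 and Gata1 at 0.92 came next. This contrast chose the 3 genes, so nothing is read from their place in the order. Cd9 at 0.45 stood between Itga2b at 0.58 and Plek at 0.41 (SE 0.15), with Gp5 and P2ry1 between them at SEs of 0.88 and 0.84, and the rule that chose the 3 genes gives no threshold in numbers. The other chain of the fibrinogen receptor, Itgb3, was at 0.32 ± 0.22 (adjusted p = 0.446), the adhesion protein Vwf at -0.44 ± 0.30 (adjusted p = 0.438), the platelet glycoprotein Gp9 at 0.23 ± 0.21 (adjusted p = 0.612) and Gp1bb at 0.27 ± 1.07 (adjusted p = 0.930, edgeR). The summed level of the 35 genes was 4759 to 5369 CPM in mutant HSC and 4479 to 5383 CPM in control HSC. In MPP3 it was 2104 to 2622 CPM in mutant and 2165 to 2904 CPM in control libraries. Gp6, the platelet collagen receptor, was at 0 in every library. Of the lists for other cells, 15 stroma and endothelium genes summed to 93.5 to 125 CPM in mutant HSC and 145 to 170 CPM in control HSC, with Lum, Dcn and Pdgfra at 0 in all HSC libraries. Of its other genes Pecam1 averaged 71.7 CPM in mutant HSC and 71.2 CPM in control HSC, Emcn 12.2 CPM in mutant HSC and 30.3 CPM in control HSC, and Pdgfrb 14.1 CPM in mutant HSC and 21.2 CPM in control HSC. Col1a2 averaged 8.68 CPM in mutant HSC and 20.2 CPM in control HSC, and Cxcl12 0.223 CPM in mutant HSC and 4.38 CPM in control HSC. The sum of 10 T and NK cell genes was 139 to 174 CPM in mutant HSC and 65.5 to 97.2 CPM in control HSC, of which Nkg7 averaged 153 CPM in mutant HSC and 60.6 CPM in control HSC and Klrb1c 5.32 CPM in mutant HSC and 14.2 CPM in control HSC, with Cd3e and Cd3g at 0 in all HSC libraries. In MPP3, 9 B cell genes summed to 99.2 to 184 CPM in mutant and 176 to 428 CPM in control libraries. The part of other cells in the Serpine2, F2rl2 and Cd9 differences was not tested.

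In MPP3 none of the megakaryocyte list passed edgeR's adjusted threshold, where 0.0141% of all genes tested rose and 0.0494% fell, and its median log2 fold change was -0.35 against -0.02 over all genes. At an unadjusted edgeR p under 0.05 there were 2 higher and 9 lower genes, where 13.8% of all genes had such a p in either direction. DESeq2 called 1 higher and 4 lower, where it called 386 of all genes tested. Gata1, a transcription factor of megakaryocytes and red cells, averaged 93.1 ± 12.0 CPM in mutant HSC and 49.3 ± 13.7 CPM in control HSC, 0.92 ± 0.30 higher (adjusted p = 0.0717), and 17.3 ± 7.94 CPM in mutant MPP3 and 39.6 ± 9.84 CPM in control MPP3, a difference of -1.19 ± 0.30 (adjusted p = 0.119). Neither Gata1 difference passed edgeR's threshold. The summed level of 14 erythroid genes was 1419 to 2734 CPM in mutant MPP3 and 2655 to 3707 CPM in control MPP3, and 3116 to 3743 CPM in mutant HSC and 3806 to 4630 CPM in control HSC. Most of this sum was Car2, which averaged 1753 CPM in mutant MPP3 and 2585 CPM in control MPP3. In HSC Car2 averaged 3153 CPM in mutant and 4018 CPM in control libraries. Over the 14 genes the median log2 fold change of mutant over control was -1.47 in MPP3, against -0.02 over all genes. In HSC it was -0.35, against -0.06 over all genes. In MPP3 none of the 14 passed edgeR's adjusted threshold, and DESeq2 called 1 lower. At an unadjusted edgeR p under 0.05 there were 0 higher and 6 lower in MPP3, against 13.8% of all genes in either direction. The median of MPP3 over HSC was -0.31 in mutants and 0.42 in controls. The part of erythroid cells in the Serpine2 difference in MPP3 was not tested.

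Between the cell types, MPP3 held less RNA than HSC of most megakaryocyte genes. By edgeR's adjusted p, 22 of the 34 fell and none rose in MPP3 over HSC from mutant mice, where 4.68% of all genes fell and 3.69% rose, and DESeq2 called 23 lower and 0 higher (0 higher at an unadjusted edgeR p under 0.05). In control mice 20 fell and 1 (Plek) rose, where 6.91% of all genes fell and 6.67% rose. Plek lost its call in 6 of 15 alternatives, on log2 TPM and without control MPP3 replicate 3 or 4 or control HSC replicate 2, 3 or 4 (adjusted p = 0.0616 to 0.101). These comparisons share their HSC libraries with the ones above. Pf4 was lower in MPP3, with a log2 fold change of -5.93 ± 0.35 in mutants (adjusted p = 1.74e-08) and -4.88 ± 0.34 in controls (adjusted p = 4.94e-08). Vwf stood at -4.89 ± 0.35 in mutants (adjusted p = 1.15e-07) and -4.94 ± 0.35 in controls (adjusted p = 7.51e-08). F2r, the receptor related to F2rl2, was lower too, at -1.51 ± 0.19 in mutants (adjusted p = 3.58e-05) and -1.01 ± 0.18 in controls (adjusted p = 0.00126). Among tetraspanins the pattern was mixed, with 4 higher and 1 lower in mutants and 4 higher and 7 lower in controls. Cd53 was higher in MPP3, at 2.46 ± 0.26 in mutants (adjusted p = 7.79e-06) and 3.16 ± 0.27 in controls (adjusted p = 6.32e-07). Cd81 was lower, at -0.32 ± 0.09 in mutants (adjusted p = 0.0263) and -0.55 ± 0.09 in controls (adjusted p = 0.000374). In mutants Cd81 lost its call in 6 of 16 alternatives, without mutant HSC replicate 3 or 4, without mutant MPP3 replicate 1 or 2, without mutant HSC replicates 1 and 4, and in a fit of the mutant groups alone (adjusted p = 0.0555 to 0.0857). Of the serpin list 6 fell and none rose in each genotype (1 higher at an unadjusted edgeR p under 0.05 and 0 higher by DESeq2 in each), Serpinb6a among them at -1.35 ± 0.23 in mutants (adjusted p = 0.00102) and -1.61 ± 0.23 in controls (adjusted p = 0.000172). Of the thrombin receptor list 1 rose and 4 fell in mutants and 1 rose and 6 fell in controls.

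The genes closest in pattern to each of the 3 were found by the root-mean-square difference of centred log2 CPM over the 16 libraries, among 9561 tested genes averaging 5 CPM or more. Genes without a symbol, predicted models, pseudogenes and ribosomal or mitochondrial genes were left out of the search. For Cd9 they were Rap1b (0.205), a small GTPase that activates platelet integrins, Bcl2l1 (0.227), a survival factor, Flywch2 (0.231) and Unc119 (0.233), against a spread of Cd9 itself of 0.603. Rap1b averaged 105 ± 18.4 CPM in mutant HSC, 72.5 ± 7.81 CPM in control HSC, 48.7 ± 6.34 CPM in mutant MPP3 and 41.4 ± 5.03 CPM in control MPP3. For F2rl2 they were Ptn (0.704), a secreted growth factor, Itgb3 (0.706), Dusp3 (0.725), a phosphatase, and Aldh1a1 (0.752), an aldehyde dehydrogenase, against a spread of F2rl2 itself of 1.67. Mutant and control HSC averaged 12.8 and 10.6 CPM for Ptn and 63.9 and 51.0 CPM for Itgb3. They averaged 163 and 128 CPM for Dusp3 and 115 and 106 CPM for Aldh1a1. In proportion each of these differences was smaller than that of F2rl2, at 34.6 and 14.9 CPM. F2rl2 was picked with its HSC difference known, so nothing is read from its larger size. For Serpine2 the closest were Rmdn2 (0.605), Ipp (0.630), Nhlrc2 (0.642) and Fer (0.646), a tyrosine kinase, against its own spread of 0.875, so no gene of those searched followed Serpine2 closely.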

How the data were processed

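RNA was sequenced from sorted mouse bone marrow cells, with a SMARTer Ultra Low kit and 150-base paired reads per the labels' protocols. The submitters' processing notes list cutadapt 4.0, FastQC, HISAT2 and Salmon with GRCm38 (mm10); their roles, settings, transcript set and strand are not stated there. The values deposited by the authors are estimated counts per gene, not normalized, from Salmon, and were rounded to whole numbers for testing. The authors' TPM, which divide by effective length and scale to a fixed total, served for levels between genes and in 1 alternative. Of 31716 rows in each table, 1910 that name single transcripts were left out, and of 29806 gene rows 79 had no symbol in GENCODE M21. Promoters came from RefSeq on GRCm38.p6.

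Genes were tested with edgeR 4.0.16 in R 4.3.3 (TMM, filterByExpr by group, robust glmQLFit, glmQLFTest), in 1 model of the 4 groups over all 16 libraries, with Benjamini-Hochberg adjustment over 14179 genes and a threshold of 0.05. The batch was not a term of this model, from which the edgeR calls and the shares of all genes called come. It entered only in the alternatives with the replicate block. SE is the log2 fold change over the square root of F. Log2 CPM within batches used a prior count of 2. Named genes were, per list and direction in each comparison, up to 6 called genes of at least 1 CPM by adjusted p, fixed relatives, and the 4 genes of nearest pattern. Of these the text prints those of the mutant comparisons in full and examples from MPP3 over HSC; Gp5, P2ry1, Gp6, the single genes of other cell types and the order of the megakaryocyte list were added after values were seen. A few list genes were dropped from every list and are not reported here. The 3 genes and all lists were chosen with earlier results of these data known.

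Alternatives were DESeq2 1.42.0, limma-voom (limma 3.58.1), RLE size factors, no filter, only the groups compared, the replicate number as a block, each library left out, and a fit without mutant HSC replicates 1 and 4, as well as limma on log2(TPM + 0.1) and the batch 3 mutant library left out with the block, both chosen after seeing the data. The labels give the number as the batch, which pairs the libraries, and over 24 same-number pairs the correlation of deviations from group means ran from -0.03 to 0.16. The analysis code was tested on simulated data.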

Additional observations from a re-analysis of the deposited data

Results flagged for a closer look

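Serpine2 was flagged because its mutant effect pointed opposite ways in the cell types in every batch, 1.87 in HSC and -0.83 in MPP3 on the log2 scale. The difference between these effects was not tested, because the HSC libraries took part in choosing the gene.

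Among the named genes, 248 groups of 4 libraries were checked for a library that stands apart from the other 3 by Dixon's criterion, and 14 were flagged, where chance flags about 1 in 20. None was a group of Serpine2, F2rl2 or Cd9. Timp3 replicate 1 was the highest library in control HSC (57.5 CPM), mutant MPP3 (1.81 CPM) and control MPP3 (4.78 CPM), 3 groups of 1 batch. In mutant HSC, replicate 4 was high for F13a1 (1.46 CPM) and low for F5 (7.89 CPM), replicate 3 was high for Serpinb6a (52.4 CPM) and replicate 2 low for Tbxas1 (165 CPM). In control HSC, replicate 4 was high for F2rl1 (1.25 CPM) and replicate 1 for Itgb1 (123 CPM) and Rmdn2 (9.04 CPM). In mutant MPP3, replicate 2 was high for Plau (1.09 CPM) and replicate 4 low for Itga4 (62.6 CPM). In control MPP3, replicate 4 was high for Itga4 (129 CPM) and replicate 2 low for Itga2b (126 CPM).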

How the results depend on the processing

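The log2 fold changes of Serpine2, F2rl2 and Cd9 kept their sign in all 4 comparisons under every alternative run. In HSC they ran from 1.56 to 2.30 for Serpine2, 1.07 to 1.40 for F2rl2 and 0.41 to 0.55 for Cd9, and in MPP3 from -1.11 to -0.71, 0.47 to 0.95 and 0.39 to 0.51. In MPP3 the adjusted p ran from 0.186 to 0.540 for Serpine2, 0.241 to 0.666 for F2rl2 and 0.00717 to 0.238 for Cd9. The call of Cd9 in MPP3 was gained with the replicate block (0.44, adjusted p = 0.0264), with DESeq2 (0.44, 0.00717) and with the batch 3 mutant library left out under the block (0.45, 0.0236). The count of genes called depended more on the setting. In HSC, 1035 became 1668 with DESeq2, 1394 with the replicate block, 1681 with the batch 3 mutant library left out under the block, 266 without mutant HSC replicates 1 and 4, and 605 to 1412 with single libraries left out. In MPP3, 9 became 386 with DESeq2, 253 with the batch 3 mutant library left out under the block, 82 with the replicate block, 47 on log2 TPM, 1 without the filter, 0 with only the MPP3 groups in the edgeR fit (1543 at an unadjusted p under 0.05), and 1 to 209 with single libraries left out. For MPP3 over HSC in mutants, 1186 became 776 without mutant HSC replicates 1 and 4. The cause was not tested. The replicate block ended the call of Itga2b in HSC. F2rl2 in MPP3 rests on 43 to 180 counts per library, fewer than Serpine2 or Cd9.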
